A study of Homo sapiens with 16 samples.

Results

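The subject here is 238 ChIP-Seq peaks of wild-type HEK293T cells, a human embryonic kidney cell line, that had a counterpart in cells without DDX23 but none in cells without DNA polymerase κ (Pol κ, gene POLK). They were chosen by position in 3 deposited peak lists: each is a wild-type peak that overlapped a peak of the DDX23-/- list by at least 1 bp and no peak of the POLK-/- list. The wild-type list held 1468 peaks, so the lost peaks were 16.2% of it, and 1361 of the 1468 overlapped a DDX23-/- peak, so they were 17.5% of those. In all, 339 wild-type peaks (23.1%) had no POLK-/- counterpart; 101 of these lacked a DDX23-/- counterpart as well. The remaining wild-type peaks were 1123 shared by all 3 lists and 6 shared with the POLK-/- list only. Because the absence from the POLK-/- list chose the members, that absence is a description and was given no test.

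The series holds 16 samples, of which 12 belong to this experiment: 2 pulldown and 2 control libraries for each of wild-type, POLK-/- and DDX23-/- cells, all untreated. The antibody is labelled as one against Pol κ, whereas the protocol given for every sample names beads against the FLAG epitope, and the labels of these cells mention no tagged protein. How the knockout lines were made, and whether each is 1 clone, is not given in the labels. One list was analysed per genotype, with 2451 POLK-/- and 5945 DDX23-/- peaks, so there is no replicate spread, no genotype was tested, and every interval below covers counting over peaks or fragments only. The names of the peaks inside the wild-type and DDX23-/- lists carry a library number that differs from the sample they were deposited with, so which pulldown library each list came from is uncertain.

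Pol κ is a translesion synthesis polymerase of the Y family that inserts nucleotides opposite minor-groove adducts of guanine. DDX23 is a DEAD-box RNA helicase of the U5 small nuclear ribonucleoprotein, which takes part in assembling the spliceosome. In ChIP-Seq, chromatin is crosslinked and sheared, fragments held by an antibody are sequenced, and a peak is a place where fragments pile up over a local background. Open, GC-rich gene starts recover well in many such pulldowns whatever the antibody. A list from cells without the antibody's target can therefore serve as a background for the list from wild-type cells. Whether the POLK-/- list is such a list is uncertain here, because the label and the protocol name different antibodies.

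Sequences of 101 bp centered on the summit, the base with the most fragments, show what the lost peaks look like. They are given for hg19 on the plus strand, and capitals mark GGGCGG or its reverse complement CCGCCC, the core of the binding motif of SP and KLF transcription factors. Windows that overlap an exon of a protein-coding gene are not shown. The first set holds 2 of the lost peaks at small nuclear RNA (snRNA) genes, the class that also held the strongest lost peak.
RNU1-85P, chr17:56757019-56757119: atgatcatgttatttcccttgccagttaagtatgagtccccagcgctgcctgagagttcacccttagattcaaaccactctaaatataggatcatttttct
RNU1-92P, chr1:149215296-149215396: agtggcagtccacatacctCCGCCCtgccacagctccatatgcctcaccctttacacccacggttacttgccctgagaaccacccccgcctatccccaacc

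The second set shows lost peaks at gene starts, the class that most of the 238 fell in, with ZNF423, the most GC-rich lost peak, in an intron 523 bp from an internal start. They carried runs of G and C, and 4 of these 6 windows held the SP/KLF core.
YWHAH, chr22:32340373-32340473: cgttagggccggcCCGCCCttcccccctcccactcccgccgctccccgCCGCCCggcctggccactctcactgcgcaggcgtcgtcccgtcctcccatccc
MSRB2, chr10:23384379-23384479: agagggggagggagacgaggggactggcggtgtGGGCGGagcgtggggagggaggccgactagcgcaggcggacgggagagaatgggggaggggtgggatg
DSG2, chr18:29078303-29078403: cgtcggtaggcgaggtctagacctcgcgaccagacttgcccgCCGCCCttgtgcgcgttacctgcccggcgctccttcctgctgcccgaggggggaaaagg
CABLES1, chr18:20715290-20715390: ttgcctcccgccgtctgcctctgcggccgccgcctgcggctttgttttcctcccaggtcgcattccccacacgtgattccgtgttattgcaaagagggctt
SPRED1, chr15:38544076-38544176: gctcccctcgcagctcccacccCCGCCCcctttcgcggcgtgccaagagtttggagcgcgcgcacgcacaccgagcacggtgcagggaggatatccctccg
ZNF423, chr16:49889450-49889550: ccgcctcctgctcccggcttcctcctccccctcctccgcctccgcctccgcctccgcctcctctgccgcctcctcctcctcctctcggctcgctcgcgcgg

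The third set shows the lost peaks between genes of this annotation, which lacks nuclear tRNA genes, that had the largest DDX23-/- folds.
Peak nearest MIR193A, chr17:29876652-29876752: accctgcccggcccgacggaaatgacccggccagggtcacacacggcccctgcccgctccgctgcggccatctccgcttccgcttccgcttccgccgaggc
Peak on chromosome 6, chr6:58142587-58142687: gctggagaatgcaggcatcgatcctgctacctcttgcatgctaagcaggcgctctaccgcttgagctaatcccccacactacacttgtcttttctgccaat

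The lost peaks were drawn from the weak end of the wild-type list. Strength was read from 2 deposited values: the −log10 of the peak caller's p, and the fold, which is the fragments at the summit, scaled by library, plus 1 over the local background plus 1. The median wild-type −log10 p was 9.49 among the lost peaks (range 5.28 to 35.7) against 14.8 among the 1123 shared peaks, and the median fold was 6.36 against 8.55. The number of fragments at the summit, recovered from these 2 values, had a median of 10 (range 7 to 34) against 16. When the 1361 wild-type peaks with a DDX23-/- counterpart were ranked by wild-type −log10 p into 5 groups of near-equal size, the share lost was 35.3% in the weakest group (101 of 286, exact binomial 95% interval 29.8 to 41.2%), 32.6% in the next, 13.8% in the middle group, 4.80% in the fourth and 0.368% in the strongest (1 of 272). The single lost peak of the strongest group was the one at RNU5A-1. Each lost peak was therefore set beside the unused shared peak nearest to it in wild-type −log10 p; these 238 are called the equally strong shared peaks, and their median −log10 p was 9.42.

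**Figure D1:**
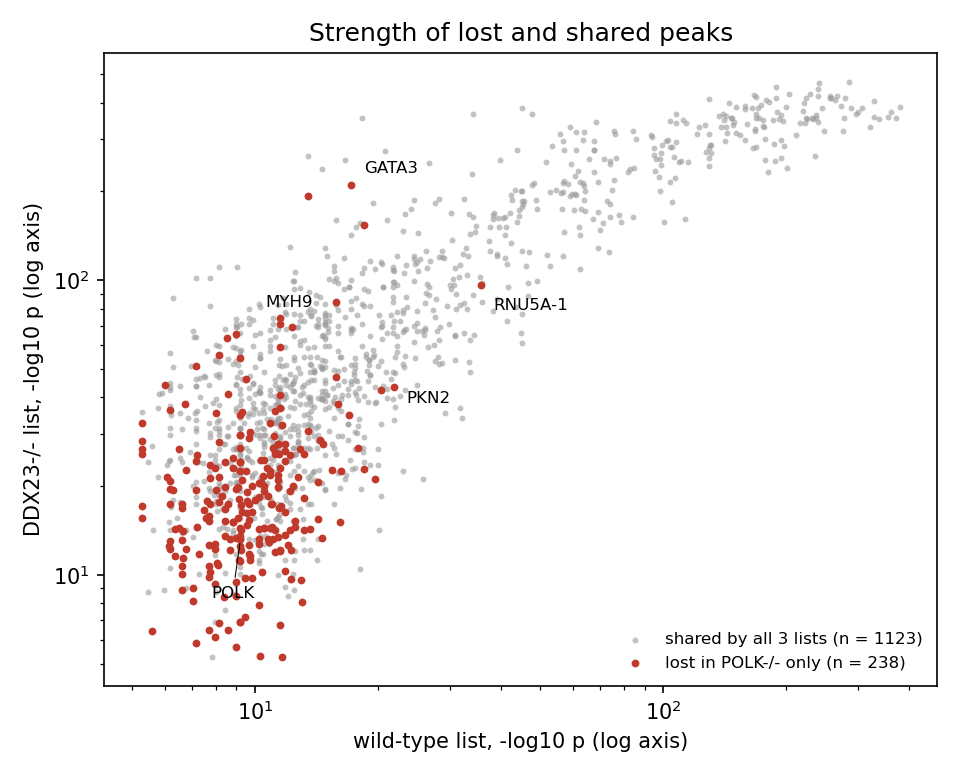
Strength of each peak in the wild-type list (x axis, −log10 p, log axis) and in the DDX23-/- list (y axis, −log10 p, log axis) for the 238 lost peaks (red) and the 1123 peaks shared by all 3 lists (gray). Lost peaks crowd the lower left, with medians of 9.49 and 17.4 against 14.8 and 53.1 for shared peaks, and RNU5A-1 and GATA3 stand away from the rest.

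At equal wild-type strength the lost peaks were also weaker in the DDX23-/- list, a measure the choice of members used only as present or absent. Their median DDX23-/- fold was 8.00 (95% interval of the median 7.59 to 8.50), against 11.5 (10.6 to 12.3) for the equally strong shared peaks and 17.0 for all shared peaks. The median −log10 p in that list was 17.4 against 29.3, the summit held a median of 37 against 52 fragments, and the peaks were 395.5 against 498.5 bp wide. A higher fold in the DDX23-/- list than in the wild-type list was seen for 173 of the lost peaks (72.7%, 66.6 to 78.2%) and for 217 of the equally strong shared peaks (91.2%). This direction depends on the 1 added to both terms of the fold. By the plain ratio of scaled fragments to background, the median of the lost peaks was 13.4 in wild-type and 11.9 in DDX23-/-, and 92 of the 238 (38.7%, 32.4 to 45.2%) were higher in DDX23-/-, against 159 of the equally strong shared peaks (66.8%, 60.4 to 72.8%). The wild-type and DDX23-/- summits lay a similar distance apart, with a median of 46.5 bp in the lost and 47 bp in the equally strong shared peaks. Among the 682 peaks with a wild-type −log10 p of 13.2 or less, of which 215 (31.5%) were lost, the share lost was 60.8% (104 of 171), 38.2%, 19.4% and 7.60% (13 of 171) in 4 groups of rising DDX23-/- −log10 p.

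**Figure D2:**
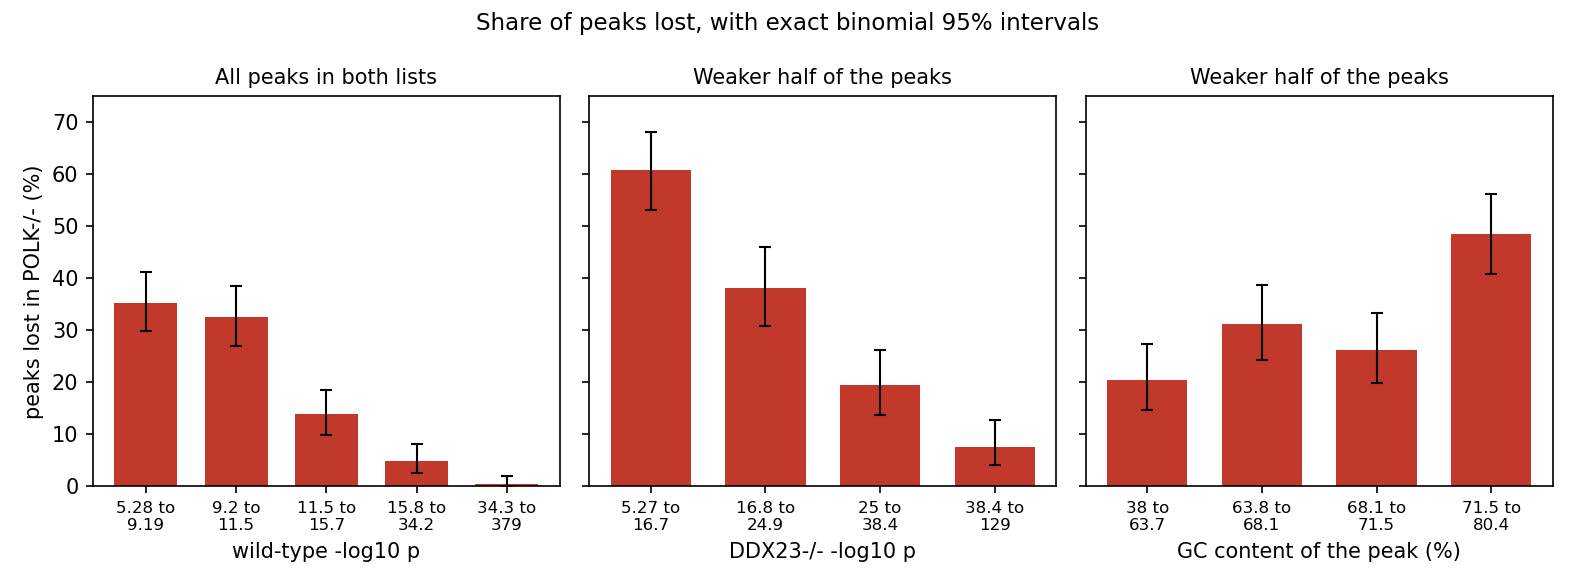
Share of peaks lost in POLK-/- (y axis, %) by wild-type −log10 p for all 1361 peaks in both lists (left), and, for the 682 weaker ones, by DDX23-/- −log10 p (middle) and by GC content of the peak (right). Bars are shares and whiskers exact binomial 95% intervals; the share falls from 35.3% to 0.368% with wild-type strength and from 60.8% to 7.60% with DDX23-/- strength, and reaches 48.5% in the group with the highest GC content.

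Most lost peaks lay at gene starts, but no more often than shared peaks of the same strength. A protein-coding gene began within 1 kb of the summit for 188 of the 238 lost peaks (79.0%, 73.3 to 84.0%) and for 188 of the 238 equally strong shared peaks, against 706 of 1123 (62.9%) of all shared peaks. Of the 188 lost peaks at such starts, 102 had the summit within 100 bp of the start. In 121 (64.4%, 57.1 to 71.2%) it lay downstream of the start, against 106 of 188 (56.4%) in the equally strong shared peaks. The starts of 2 divergent protein-coding genes both lay within 1 kb of the summit at 29 lost and 28 equally strong shared peaks. The other lost peaks fell at starts of long noncoding RNA genes (12), in or by small RNA genes (4), in exons (13) or introns (15) of protein-coding genes, in other genes (2) and between genes (4). The distance was taken to the outermost start of each gene, so that peaks at internal starts count as exonic or intronic. When the starts of all annotated transcripts of protein-coding genes were used, 220 lost and 219 equally strong shared peaks lay within 1 kb of one.

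**Figure D3:**
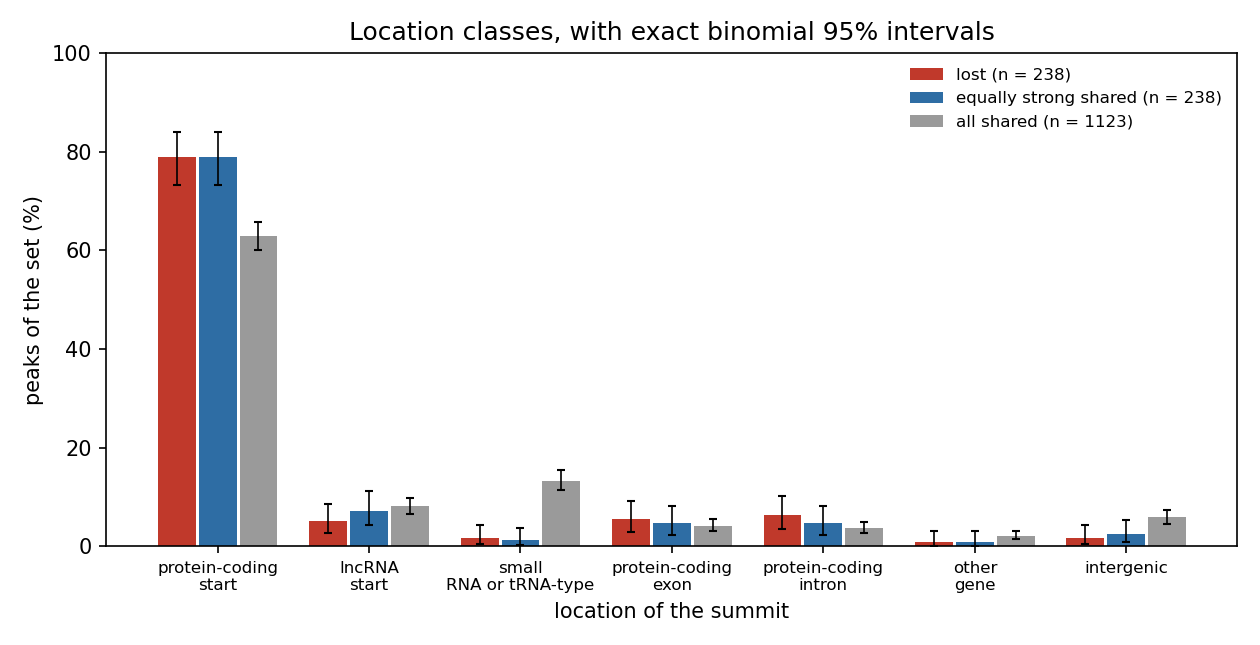
Share of peaks (y axis, %) by location of the summit (x axis) for the 238 lost peaks (red), the 238 equally strong shared peaks (blue) and all 1123 shared peaks (gray), with exact binomial 95% intervals. The intervals of the lost and equally strong shared sets overlap in every class, with 79.0% of each at protein-coding starts, while small RNA genes and tRNA-type promoters take a larger share of all shared peaks.

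Promoters of the kind found in transfer RNA (tRNA) genes were rare among the lost peaks. The annotation used here holds no nuclear tRNA genes, so such promoters were sought by their internal A and B boxes, which misses tRNA genes with other boxes. A tRNA-type promoter with these boxes lay within 200 bp of the summit in 0 of 238 lost peaks (upper 95% bound 1.54%), 2 of the equally strong shared peaks and 180 of all 1123 shared peaks. With any base allowed at the third position of the B box, a search added after the values were seen, the counts were 1 of the lost, 2 of the equally strong shared and 192 of all shared peaks (17.1%). The lost peak found by the looser search was the one on chromosome 6 shown above. The small RNA and tRNA-type class as a whole lost 4 of its 153 peaks (2.61%). It was a class of strong peaks, since 11 of the 153 were among the 682 weaker peaks, and 2 of those 11 were lost. On chromosome 6 lay 16 of the lost (6.72%), 11 of the equally strong shared (4.62%) and 170 of all shared peaks (15.1%). The equally strong set does not serve for comparing chromosomes, since ties in the matching were taken in genome order. Chromosome 1 held 57 of its peaks (23.9%), against 28 lost (11.8%) and 153 of all shared peaks (13.6%). A stretch with a near-identical copy elsewhere in the genome was found in 10 lost (4.20%), 17 equally strong shared (7.14%) and 293 of all shared peaks (26.1%). In 5 lost peaks it covered 50% or more of the sequence, so that reads there may be hard to place, which was not examined. Among these 5 were the peak at NBPF15 and the peak on chromosome 6 shown above, both covered in full.

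All 4 lost peaks of the small RNA class lay at genes or gene copies of the spliceosomal snRNAs U1 and U5. This grouping was made after the values were seen. Of 24 peaks within 200 bp of a spliceosomal snRNA gene that were in both the wild-type and the DDX23-/- list, 4 were lost (16.7%, beside 17.5% of all peaks in those lists): 2 of 8 at U1, 2 of 6 at U5, and none of the 10 at U2, U4, U6 and the minor-spliceosome U4atac and U6atac genes. Wild-type folds ran from 5.27 to 18.4 at the 14 U1 and U5 peaks and from 8.28 to 54.6 at the 10 others. Few strong peaks of any kind were lost, so these counts cannot separate the kind of snRNA from strength. U1 and U5 occur in the genome as several genes and many copies, and a name ending in P marks an annotated pseudogene.

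The peak at RNU5A-1, which encodes a U5 snRNA, was the strongest lost peak (chr15:65588213-65588883). It had a wild-type fold of 14.7 from 34 fragments and a DDX23-/- fold of 27.1 from 121 fragments. No POLK-/- peak overlapped it, and the nearest lay 3887 bp away. The neighboring peak at RNU5B-1, another U5 gene, was present in all 3 lists (chr15:65596789-65597294), with a fold of 13.3 from 27 fragments in wild-type, 13.0 from 97 in DDX23-/- and 8.34 from 26 in POLK-/-. Its POLK-/- overlap was among the smallest in the shared set, at 22 bp. A near-identical copy covered 8.94% of the RNU5A-1 peak and 12.6% of the RNU5B-1 peak. At RNU1-85P (chr17:56756867-56757219) the fold was 9.94 from 21 wild-type and 8.76 from 43 DDX23-/- fragments. At RNU1-92P (chr1:149215193-149215433) it was 7.47 from 11 and 25.4 from 90 fragments, and at RNU5A-8P (chr1:210547447-210547680) 5.27 from 13 and 20.0 from 89 fragments. Of the lost peaks at RNU5A-1, RNU1-85P and RNU1-92P, only the one at RNU1-85P was lower in DDX23-/- than in wild-type, by the fold and by the plain ratio (17.3 and 12.1). The U5 peaks and RNU1-85P were AT-rich, with GC contents of 36.2% at RNU5A-1, 38.0% at RNU5A-8P and 39.1% at RNU1-85P.

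The strongest lost peaks at protein-coding starts were those of PKN2, a serine/threonine protein kinase, and YWHAH, a 14-3-3 adapter protein. The PKN2 peak (chr1:89149813-89150304, summit 100 bp downstream of the start) had a fold of 12.1 from 18 wild-type fragments and 12.7 from 78 DDX23-/- fragments. The YWHAH peak (chr22:32340240-32340723, summit 85 bp upstream) had a fold of 10.9 from 19 and 14.3 from 69 fragments. By the plain ratio both were lower in DDX23-/- than in wild-type, at 16.4 against 31.4 for PKN2 and 20.2 against 22.9 for YWHAH. More than 100 kb separated PKN2 from the nearest POLK-/- peak.

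The named starts differed in how the 2 lists compared, and for several the order of the lists turned when the 1 added in the fold was left out. At MYH9, a nonmuscle myosin heavy chain, the fold was 8.72 from 17 wild-type fragments and 24.2 from 110 DDX23-/- fragments. At NOM1, a nucleolar protein, it was 8.47 from 18 and 15.8 from 72, and both were also higher in DDX23-/- by the plain ratio, which at NOM1 was 22.9 against 14.5. At BAD, a proapoptotic BCL2 relative, the fold was 9.54 from 14 and 13.7 from 61, but the plain ratio was 24.4 in wild-type and 20.1 in DDX23-/-. The 2 folds were closer at LIN9, a subunit of the DREAM complex, with folds of 8.91 and 9.83, and at STC2, a secreted glycoprotein, with folds of 9.73 and 10.6, and both were lower in DDX23-/- by the plain ratio. At DSG2, a desmosomal cadherin, the fold was 8.02 from 17 wild-type fragments and 7.56 from 27 DDX23-/- fragments, and at USP54 it was 7.68 from 16 and 5.61 from 41. MCM3AP, an mRNA export factor, had a fold of 10.6 from 16 and 9.73 from 43 fragments, and CNBP, a nucleic acid-binding zinc finger protein, 9.46 from 15 and 8.10 from 30. At SPRED1, an inhibitor of RAS signaling, the fold was 8.26 from 12 and 7.15 from 31 fragments, and at MSRB2, a methionine sulfoxide reductase, 8.72 from 13 and 8.02 from 29. CABLES1, a cyclin-dependent kinase partner, had folds of 8.66 and 11.3 and plain ratios of 19.1 and 16.3. The folds were 9.29 and 8.50 at ARMT1, 7.54 and 7.96 at ZCCHC18, and 8.26 and 9.16 at NBPF15, whose sequence is fully duplicated, and all 3 were lower in DDX23-/- by the plain ratio. The noncoding starts among the strongest lost peaks were LINC01003 (folds 8.76 and 9.80) and ZNF767P (8.55 and 11.1), both lower in DDX23-/- by the plain ratio.

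The largest DDX23-/- folds in the lost set were far above the wild-type ones, also by the plain ratio. These peaks were picked by their DDX23-/- fold, a choice that favors this direction. Over all 238 lost peaks the median plain ratio was 11.9 in DDX23-/- and 13.4 in wild-type. The peak at the internal start of GATA3, a transcription factor of lymphoid and epithelial cells, had a fold of 8.16 from 22 fragments in wild-type and of 54.4 from 207 fragments in DDX23-/- (chr10:8096573-8096952, in an exon). The peak on chromosome 6 found by the looser tRNA-type search (chr6:58142459-58142829) had folds of 9.49 and 45.2, from 20 and 155 fragments, and since near-identical copies cover it, the locus of origin is uncertain. The peak 10313 bp from MIR193A (chr17:29876527-29876755) had folds of 7.58 and 44.7, from 16 and 207 fragments. That last peak lay 189 bp from a POLK-/- peak and is 1 of the members closest to the limit of the rule. Lost peaks overlapped 237 DDX23-/- peaks, and 4 of these, the MIR193A one included, also overlapped a POLK-/- peak. The DDX23-/- fold of 44.7 thus belongs to a wider region (968 bp) that kept a POLK-/- peak.

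The POLK start itself held a lost peak. It spanned chr5:74807368-74807596, with the summit 191 bp upstream of the POLK start and 16 bp from a start of the divergent gene CERT1, a ceramide transfer protein. The wild-type fold was 6.36 from 9 fragments (exact Poisson 95% interval 4.12 to 17.1), and the DDX23-/- fold was 6.71 from 29 fragments, with plain ratios of 15.7 and 9.56. The POLK-/- list had no peak within 10 kb of the gene. At DDX23 no wild-type or POLK-/- peak was listed within 10 kb, and the DDX23-/- list had 1, at the gene start. The lost set held the start of 1 other DNA polymerase gene, POLE, the catalytic subunit of the replicative polymerase ε, with a fold of 6.85 from 12 wild-type and 9.24 from 32 DDX23-/- fragments.

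Among 14 gene families chosen by symbol, those with the most lost peaks were zinc finger genes, respiratory chain genes and mitochondrial ribosomal proteins. A peak was counted for a family if a start of that family lay within 1 kb of the summit, even where another gene started nearer. Zinc finger gene starts lost 8 of 22 peaks, including those of ZNF302 (wild-type fold 7.11, DDX23-/- fold 7.15) and ZNF721 (7.21 and 12.3). The respiratory chain lost 5 of 16: SDHA of complex II (folds 7.47 and 14.4), NDUFB8 (6.84 and 6.71) and NDUFA1 (6.46 and 5.03) of complex I, the assembly factor NDUFAF7 (6.85 and 5.27) and ATP5PD of the ATP synthase (6.33 and 3.23). Mitochondrial ribosomal starts lost 4 of 11, at MRPS16, MRPL14, MRPL18 and the antisense gene of MRPL20. Genes outside these families started nearer to several of the summits. The nearest protein-coding start was CCDC127 for the SDHA peak (13 bp) and PIGG for the ZNF721 peak (70 bp). It was TCP1 for the MRPL18 peak (166 bp) and CCNL2 for the MRPL20 antisense peak (17 bp). Over all peaks in the 2 lists 17.5% were lost. Most peaks of these families were among the 682 weaker ones, of which 31.5% were lost, and of those 7 of 16 zinc finger, 5 of 13 respiratory chain and 4 of 8 mitochondrial ribosomal peaks were lost.

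Beside the 17.5% lost over all peaks, chaperone starts lost 3 of 10 peaks, at HSPD1, the mitochondrial HSP60 (folds 4.65 and 17.8), at CCT7 of the cytosolic chaperonin (5.43 and 7.10), and at the antisense gene of DNAJC9, whose peak is the one at MRPS16. The start nearest the CCT7 peak was that of PRADC1, 47 bp from the summit. Proteasome symbols lost 2 of 4, PSMD8 and PSMC3IP, of which the latter is a recombination factor and not a proteasome subunit. Replication and translesion synthesis lost 2 of 7, POLE and POLK, and the ubiquitin pathway lost 2 of 12, USP54 and USP36. Translation factors and tRNA synthetases lost 1 of 13, EIF4EBP1, and cytosolic ribosomal proteins 1 of 6, RPS27L. No peak was lost of 9 at splicing factor genes, 8 at RNA polymerase subunits, 5 at replication-dependent histones and 4 at DEAD/DEAH-box helicases, and no peak of the 2 lists lay at a snoRNA host gene of this set. Of these, 0 of 5 histone, 2 of 9 splicing factor, 3 of 8 polymerase and 2 of 4 helicase peaks were among the 682 weaker peaks. In those weaker peaks, of which 31.5% were lost, the losses were 3 of 8 for chaperones, 2 of 3 for proteasome symbols and 2 of 5 for replication. They were 1 of 5 for the ubiquitin pathway, 1 of 8 for translation and 1 of 4 for cytosolic ribosomal proteins. The families were compared by counts alone and none was tested.

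The lost peaks had a somewhat higher GC content than shared peaks of the same strength. The median GC content of the peak was 69.8% (68.3 to 70.9%) in the lost, 67.5% (66.8 to 68.2%) in the equally strong shared and 64.5% (63.6 to 65.3%) in all shared peaks, and the intervals of the lost and equally strong shared peaks were only 0.045 percentage points apart. Under 6 of 10 alternatives they overlapped, among them matching on fold and taking tied peaks in reverse order, while the median of the lost peaks was the higher under all 10. Over the bases up to 250 bp from the summit the medians were 69.1%, 65.7% and 63.3%. A GC content of 70% or more was found in 115 lost (48.3%, 41.8 to 54.9%), 71 equally strong shared (29.8%) and 265 of all shared peaks (23.6%). The ratio of observed to expected CpG differed little, with medians of 0.84, 0.83 and 0.82. Lost peaks ranged from 36.2% at RNU5A-1 to 80.4% at ZNF423.

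**Figure D4:**
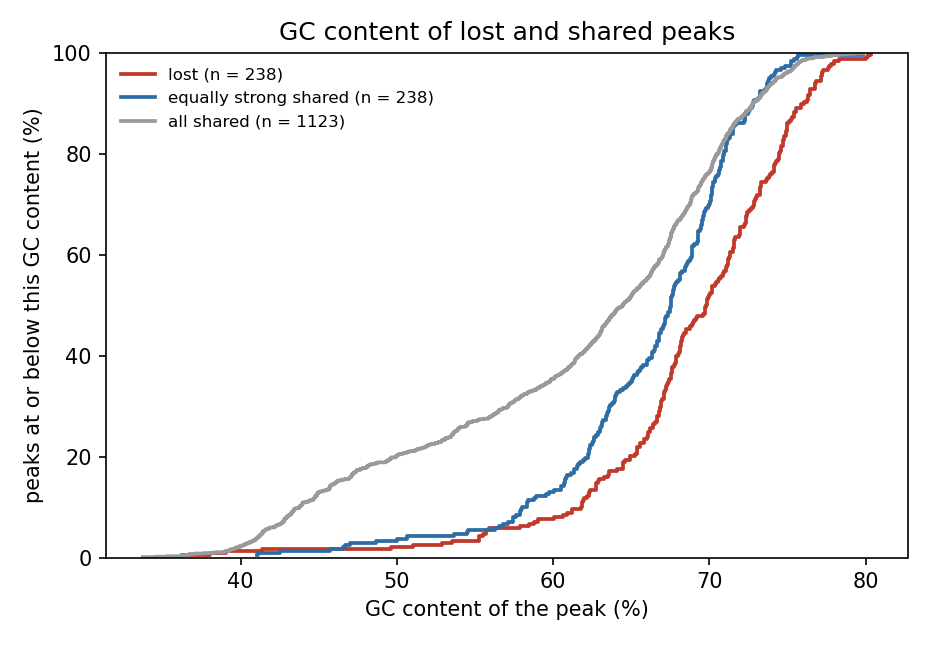
Cumulative share of peaks (y axis, %) at or below a GC content (x axis, % of the bases of the peak) for the 238 lost (red), the 238 equally strong shared (blue) and all 1123 shared peaks (gray). The red curve lies to the right of the blue one over most of its length, with medians of 69.8% and 67.5%.

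The share lost was highest at the top of the GC range. Among the 682 weaker peaks, 48.5% (82 of 169, 40.8 to 56.3%) were lost in the group with the highest GC content, 71.5 to 80.4%, against 20.5%, 31.2% and 26.2% in the 3 groups below it. The same was seen among the weaker peaks at protein-coding starts, at 48.1% (63 of 131) against 21.4%, 37.4% and 24.4%. The 682 peaks were also split by strength in the DDX23-/- list. Below a DDX23-/- −log10 p of 24.9, 72.5% (66 of 91, 62.2 to 81.4%) of the peaks in the highest GC group were lost against 41.2% (103 of 250, 35.0 to 47.6%) of the others. Above it the shares were 20.5% (16 of 78, 12.2 to 31.2%) and 11.4% (30 of 263, 7.83 to 15.9%), with overlapping intervals. When shared peaks were matched to the lost ones on DDX23-/- instead of wild-type strength, their median GC content was 67.3% (66.7 to 68.1%). Libraries can differ in how well they recover GC-rich DNA; the reads needed to measure this were not analysed here, and its part in the loss was not tested.

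The motif found in most lost peaks was GGGCGG, the SP/KLF core, which is itself made of G and C. It was found on either strand within 150 bp of the summit in 193 lost (81.1%), 170 equally strong shared (71.4%) and 58.4% of all shared peaks, and in 54.1% of windows of the same length around 20113 protein-coding starts. Peaks were then grouped by GC content over the bases up to 250 bp from the summit. Among peaks of 60 to 70% GC the shares were 78.4%, 75.8% and 74.3%, and among those of 70 to 80% GC they were 92.3%, 87.5% and 88.3%. AAGATGGCG, the motif of YY1, was found in 16 lost (6.72%) and 7 equally strong shared peaks (2.94%), against 5.08% of all shared peaks and 2.34% of starts. TCTCGCGA, the motif of ZBTB33, showed the opposite order, with 4 lost (1.68%), 14 equally strong shared (5.88%) and 4.63% of all shared peaks, against 1.44% of starts. The NFY motif CCAAT (33.2% and 39.1%) and the ETS motif CCGGAAG (16.8% and 21.0%) were somewhat less frequent in the lost than in the equally strong shared peaks. GTTCGANTC, the B box of tRNA genes, was found in 1 lost peak and 9.35% of all shared peaks, and overlaps with the tRNA-type promoters counted above. CACGTG, the E-box, was found in 22 lost (9.24%) and 16 equally strong shared peaks (6.72%), against 7.78% of starts. The TATA box, searched as TATAAA, was found in 10 lost and 5 equally strong shared peaks, against 9.25% of starts. AGGGGGCGC, taken as the core of the CTCF motif, was found in 7 and 3, and TGANTCA, the AP-1 motif, in 8 of either set. GCGCATGC, the NRF1 motif, was found in 10 and 11, and TGACGTCA, the CRE motif, in 5 and 6. A match is a run of letters and not evidence of binding.

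Whether a peak of this strength could have been seen in the POLK-/- list was asked from the recovered fragments. The POLK-/- library was 2.36 times and the DDX23-/- library 3.95 times as deep as the wild-type one, as far as their backgrounds show, and the absolute numbers of reads are unknown. Scaled by depth, the wild-type peaks called for a median of 23.6 fragments at the lost peaks in POLK-/- cells (range 16.5 to 80.1), and the DDX23-/- peaks for 22.1 (10.8 to 124). A median of 11 fragments (10 to 18) was needed there to reach a −log10 p of 4.70, that of the weakest POLK-/- peak. Both expectations reached the number needed at 232 of the 238 lost peaks. They did so at all 238 equally strong shared peaks and at 1016 of the 1018 shared peaks with recovered fragments. Every one of these peaks had to be called in the wild-type and DDX23-/- lists, which favors high counts there. Reaching the number needed was thus nearly fixed by the choice and cannot show whether the depth sufficed. Both expectations were at least 2 times that number at 76 lost and 129 equally strong shared peaks. In the equally strong shared peaks the POLK-/- list held a median of 28 fragments, 1.11 times the expectation from wild-type (interquartile range 0.910 to 1.39) and 0.906 times that from DDX23-/- (0.728 to 1.08). Those peaks were chosen for having a POLK-/- peak, which favors high POLK-/- counts. The 2 ratios therefore cannot show that the expectations hold at lost peaks. Fragments at a lost peak in POLK-/- cells are not in a peak list, so how far each fell short of the threshold is not known. Wild-type peaks of 7 to 34 fragments carry a wide counting error, and lost peaks held fewer DDX23-/- fragments than the wild-type peak called for (median ratio 0.899) while equally strong shared peaks held more (1.24).

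**Figure D5:**
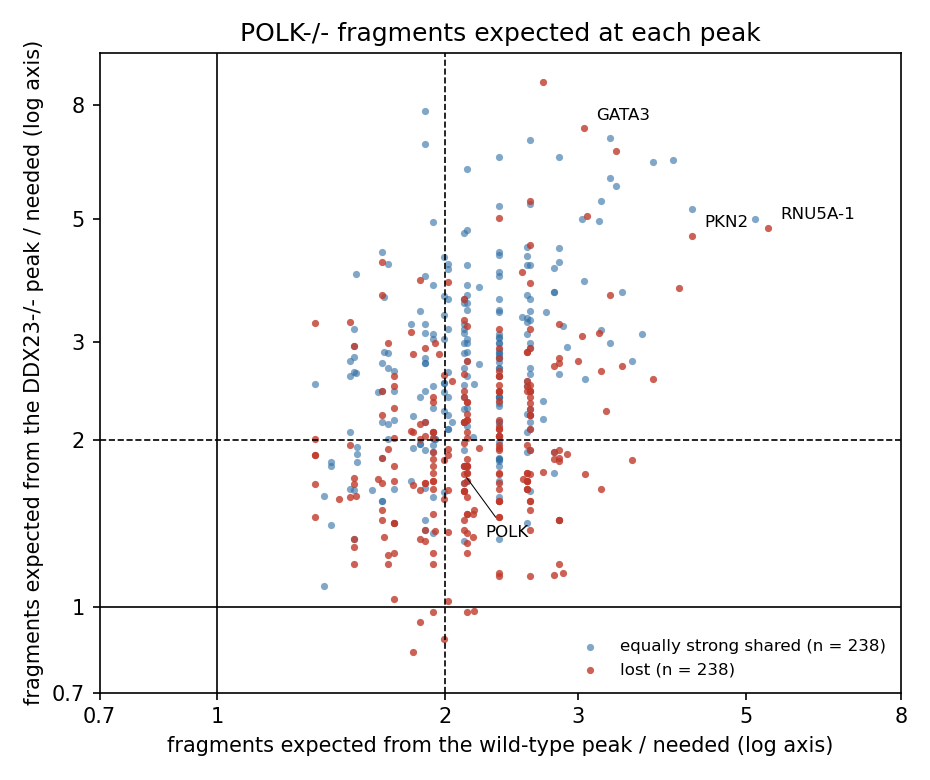
Fragments expected in the POLK-/- library from the wild-type peak (x axis) and from the DDX23-/- peak (y axis), each divided by the number needed for the weakest POLK-/- peak (log axes), for the 238 lost (red) and the 238 equally strong shared peaks (blue). Solid lines mark 1 and dashed lines 2 times the number needed; 232 lost peaks lie above 1 on both axes and 76 at or above 2, with RNU5A-1, PKN2 and GATA3 at the far end.

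The 76 lost peaks with both expectations at least 2 times the number needed comprised 56 at protein-coding starts. Of all 238 lost peaks, 188 lay at such starts. Of the 76, 66 lay more than 10 kb from any POLK-/- peak. Of all 238, 60 lay 10 to 100 kb and 159 more than 100 kb from one. The median GC content of the 76 was 67.8%, against 69.8% in all lost and 67.5% in the equally strong shared peaks. Their median folds were 7.11 in wild-type and 10.6 in DDX23-/-, against 6.36 and 8.00 in all lost peaks. The 76 were chosen by the fragments behind these folds, which favors high folds. At RNU5A-1 the expectations were 80.1 and 72.3 fragments with 15 needed, at PKN2 42.4 and 46.6 with 10 needed, and at YWHAH 44.8 and 41.2 with 11 needed. At GATA3 they were 51.8 and 124 with 17 needed. At the POLK start they were 21.2 and 17.3 fragments with 10 needed, so that this peak was not among the 76.

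How the lists were cut also bears on the number. The DDX23-/- list is longer than the POLK-/- list, and a longer list overlaps more wild-type peaks. With the DDX23-/- list cut to its 2451 strongest peaks, the length of the POLK-/- list, 113 wild-type peaks were missing from the POLK-/- list only and 102 from the DDX23-/- list only, while 1027 were in all 3 and 226 in neither. At equal length the lists thus lacked similar numbers of wild-type peaks. By distance, 8 of the 238 lost peaks had a POLK-/- peak within 1 kb, 11 within 1 to 10 kb, 60 within 10 to 100 kb and 159 none within 100 kb. The peaks just inside the rule were those at ZNF768, which abutted a POLK-/- peak, and COQ8A, 59 bp from one. Just outside it were the shared peaks at PAPOLA and ERCC6L2, whose overlaps with a POLK-/- peak were 9 and 18 bp.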

How the data were processed

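Genotypes were taken from the sample labels. The authors deposited 1 list of peaks per genotype with, for each peak, a position and summit, a fold (a ratio, with 1 added above and below), the −log10 p-value, the −log10 q-value and a score, which is 10-fold the −log10 q-value. The submitters' processing notes name Bowtie2, MACS2, bedtools, deepTools and hg19, without versions; the control used, the threshold and any pooling are not given in the sources used here. Removal of duplicates is stated for the Pol κ ChIP-Seq of the study and not for these lists.

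Lists were compared by overlap of at least 1 bp. Sequence and annotation were GRCh37 and GENCODE 44 placed on GRCh37. Fragments at the summit and local background were recovered by solving the MACS2 formulas for the fold and p, to within 0.005 in −log10 p, which succeeded for 1460 of 1468, 2385 of 2451 and 5852 of 5945 peaks of the wild-type, POLK-/- and DDX23-/- lists, including all lost and equally strong shared peaks; the recovery was tested on simulated data. Relative depth came from the lowest background held by at least 2% of a list and the shortest peak. Each lost peak, from the strongest down, took the nearest unused shared peak in wild-type −log10 p, ties in genome order, which favors chromosome 1. Near-identical copies were sought with blastn 2.17.0 (95% identity over at least 50 bp). A tRNA-type promoter was a B box with an A box 24 to 110 bp before it. Shares have exact binomial (Clopper-Pearson) and medians order-statistic 95% intervals; there was 1 list per genotype, so no test was made. Peaks named were the 25 lost peaks with the largest wild-type −log10 p, the 5 with the largest DDX23-/- fold, those at members of 14 gene families, those within 10 kb of POLK and DDX23, and those nearest the limits of the rule. One of the peaks this names, and the sequence of another, are not reported here. The members, families, classes and motifs were chosen with earlier results of these data known. Python 3.11.15, pandas 2.3.3 and scipy 1.17.1 were used.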

Additional observations from a re-analysis of the deposited data

How the results depend on the processing

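Of 65 alternative values computed for 10 results, 45 stayed within the interval of the value reported, or within 1.5 times it for the count. Cutting the DDX23-/- list to 2451 peaks, chosen after seeing the data, lowered the lost peaks to 113 and their share to 9.91%. A reciprocal overlap of 50% raised the share to 22.05% and the median DDX23-/- fold of the lost peaks to 8.52. A q of 1e-05 or less raised the DDX23-/- folds of the lost and equally strong shared peaks to 9.24 and 12.6, and the plain ratio without 1 added gave 11.9 and 16.7; on that scale the wild-type median of the lost peaks was 13.4, and the share of lost peaks stronger in DDX23-/- than in wild-type was 38.7% instead of 72.7%. A looser B box found a tRNA-type promoter at 1 lost peak instead of 0; this and the share by plain ratio were chosen after seeing the data. The share at protein-coding starts became 84.9% and 84.0% within 5 kb, 86.1% and 88.2% with starts of all genes, and 92.4% and 92.0% with starts of all transcripts, the last chosen after seeing the data. Without matching, the shared peaks had 62.9% at starts, a GC content of 64.5% and a fold of 17.0. Around the summit the GC content of the equally strong shared peaks was 65.7%. The lost peaks stayed above the equally strong shared ones in GC content and below them in DDX23-/- fold under every alternative run, but the intervals of the GC medians overlapped under 6 of 10: a reciprocal overlap of 50%, summits within 500 bp, no POLK-/- peak within 1 kb, a q of 1e-05 or less, matching on fold and ties in reverse order. Ties taken in reverse genome order and matching on DDX23-/- strength were also chosen after seeing the data. No paired analysis was possible because there was 1 list per genotype and no test. Leaving out a replicate was not possible for the same reason. Depth limits the wild-type list most, whose weakest peak held 6 fragments.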
